A study of Mus musculus with 12 samples.

Results

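The proteasome is the large protease of the cytoplasm and nucleus that degrades proteins tagged with ubiquitin. Its genes were taken here by name: protein-coding genes whose symbol starts with Psma, Psmb, Psmc, Psmd, Psme, Psmf or Psmg followed by a digit, leaving out Psmb8 and Psmb9. The rule found 48 of the 21959 genes of the table. They comprised 8 alpha subunits and 9 beta subunits of the 20S core, 6 ATPases and 3 other subunits of the base of the 19S cap, 8 subunits of the 19S lid, 7 assembly factors, and 6 activators and inhibitors. The last, Psmc3ip, is a cofactor of meiotic recombination that matches by its name only, which leaves 47 proteasome genes. A member's level is given as CPM (counts scaled to a common library size) scaled by TMM factors, and levels of different genes are compared only per kilobase of the principal transcript.

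RNA came from whole testis of wild-type male ICR mice, an outbred stock. Mice were 8 months old in the design and 9 months old at collection. The groups were physiological saline and blueberry extract at 50, 100 and 200 mg/kg per day, all by gavage, with 3 libraries each and 1 batch label for all. Whether each library is a separate animal is not stated, so the p-values rest on library-to-library spread that may be technical. Libraries held 14382378 to 19118265 counts. In whole tissue, fewer cells of a type and less RNA per cell cannot be told apart.

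The core particle is a barrel of alpha rings around beta rings. The alpha rings form the gate, and Psmb5, Psmb6 and Psmb7 carry the cutting sites inside. The 19S cap binds ubiquitin chains, removes them and unfolds the substrate. Germ cells build a variant, the spermatoproteasome, in which Psma8 takes the place of Psma7 and the activator Psme4 (PA200) serves histone removal while sperm heads condense.

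Summed levels of marker lists gave testis: in saline libraries 10 elongating spermatid genes summed to 21220 to 21660 CPM, 12 Sertoli cell genes to 1549 to 1574 CPM, and 11 genes of the epididymis and accessory glands to 2.82 to 4.99 CPM, with Lcn8 at 0 in all libraries. Library 3 at 100 mg/kg was unlike the other two of its dose. Its chi-square per degree of freedom was 11.5 against library 1 and 7.65 against library 2, and that of all other pairs within groups was 1.58 to 2.96. Results that turn on it are given with and without it.

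All 48 members had counts, and 47 passed the filter on low counts. The exception was Psmb11, the beta subunit of the thymic cortex, with 36 counts in the 12 libraries together. The 47 tested therefore include Psmc3ip and are not the same set as the 47 proteasome genes. The members took 0.643 to 0.649% of the counts in saline libraries, 0.618 to 0.628% at 50 mg/kg, 0.672 to 0.682% at 100 mg/kg and 0.632 to 0.641% at 200 mg/kg. The 4 ranges did not overlap.

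Levels per kilobase in saline testis ran over several orders of magnitude. Psmc3, an ATPase of the base, stood at 500.2 ± 3.76 CPM per kb and Psma6, an alpha subunit, at 486 ± 2.02 CPM per kb (SD, n = 3 each). Psmc2, another ATPase, had 226 ± 0.416 CPM per kb and the lid subunit Psmd8 211 ± 7.83 CPM per kb. The order within the core was uneven. Psmb6, the subunit with caspase-like activity, had 196 ± 3.45 CPM per kb, Psmb7, with trypsin-like activity, 62.8 ± 1.93 CPM per kb, and Psmb5, with chymotrypsin-like activity, 11.1 ± 1.21 CPM per kb. These 3 ranges did not overlap.

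**Figure D1:**
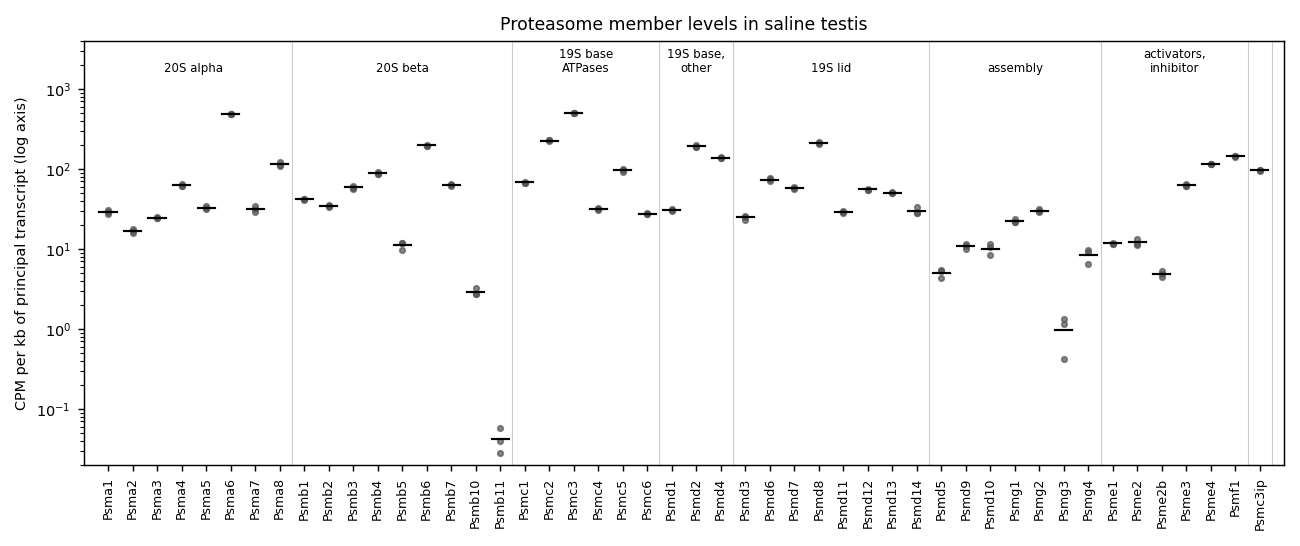
Level of each of the 48 members in saline testis, in CPM per kb of principal transcript on a log axis, grouped by role. Points are the 3 saline libraries and bars their mean. Psmc3 and Psma6 lie highest and Psmb11, at under 0.1 CPM per kb, lowest.

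The germ-cell subunit exceeded its counterpart. Psma8 had 114 ± 6.4 CPM per kb and Psma7 31.4 ± 2.6 CPM per kb in saline testis, and the ratio of Psma8 to Psma7 was 3.88, 3.25 and 3.75 in the 3 libraries. Psme4 had 116 ± 0.591 CPM per kb, against 62.1 ± 1.89 CPM per kb for Psme3, the nuclear PA28 gamma. Genes of the interferon-induced forms were low, though other members such as Psmb5 (11.1 ± 1.21 CPM per kb) and Psmd5 (5.02 ± 0.584 CPM per kb) were low too. Psmb8 and Psmb9 were left out by the naming rule. Psmb10, the inducible counterpart of Psmb7, had 2.9 ± 0.325 CPM per kb, and Psme1 and Psme2, the chains of the PA28 cap, had 11.7 ± 0.136 and 12.1 ± 1.08 CPM per kb. The ratio of Psmb10 to Psmb7 was 0.0506, 0.0429 and 0.0447. Psme2 and its retrocopy Psme2b are 99.37% identical over 794 bases, so reads may be split between them and both values are uncertain.

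At 50 mg/kg, members that passed the test were lower than in saline, by 1.11 to 1.2 times, and 0 were higher. Of 47 tested, 9 fell (edgeR quasi-likelihood test, Benjamini-Hochberg adjusted p under 0.05 over 15682 genes), while the share of all tested genes that fell was 8.02% and the share that rose 9.21%. At an unadjusted p under 0.05 there were 16 members lower and 0 higher, and DESeq2 called 9 lower and 0 higher. The median log2 fold change was -0.09 over the members and -0.00 over all genes. The library ranges lay wholly below saline for 20 members and wholly above for 2, against 18.7% and 18.9% of all genes.

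In the core, 3 of 16 tested subunits fell (18.8%, against 8.02% of all genes): the alpha subunits Psma2 and Psma3 and the catalytic Psmb6. Psma2 had 42.8, 41.4 and 38.3 CPM at 50 mg/kg, against 51.7, 48.4 and 46.5 CPM in saline (log2 fold change -0.26 ± 0.06 SE, adjusted p = 0.00531). The groups did not overlap. Psma3 had 62.8, 60.1 and 59.4 CPM at 50 mg/kg, against 70.5, 68.4 and 70.2 CPM in saline (-0.20 ± 0.05, adjusted p = 0.0134). Psmb6 had 142, 134 and 132 CPM at 50 mg/kg, against 156, 160 and 154 CPM in saline (-0.20 ± 0.06, adjusted p = 0.0147). All 3 treated libraries lay below all 3 saline libraries for both genes. Psma3 has a processed pseudogene identical over 665 bases, so its counts are uncertain.

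In the caps, 5 of 17 tested subunits fell (29.4%, against 8.02% of all genes). Psmd3, a lid scaffold, had 45.0, 42.3 and 45.6 CPM at 50 mg/kg, against 49.7, 54.3 and 55.7 CPM in saline (-0.26 ± 0.06, adjusted p = 0.00327). Psmd2, the base scaffold that docks ubiquitin shuttle proteins, had 487, 504 and 502 CPM at 50 mg/kg, against 558, 564 and 595 CPM in saline (-0.20 ± 0.05, adjusted p = 0.00601). The lid subunit Psmd7, partner of the deubiquitinase Psmd14, had 81.2, 75.5 and 80.4 CPM at 50 mg/kg, against 93.6, 90.9 and 88.2 CPM in saline (-0.20 ± 0.05, adjusted p = 0.00615). None of these groups overlapped. The ATPase Psmc1 fell by 0.15 ± 0.05 (adjusted p = 0.0234) and the lid subunit Psmd13 by 0.16 ± 0.05 (adjusted p = 0.0359). Psmd13 shares 329 bases with a transcript of Sirt3 and Psmc1 is 97.11% identical to a pseudogene over 728 bases, so both are uncertain.

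Of the regulators, Psmf1 (PI31), which binds the core and was first described as an inhibitor, had 509.9, 456 and 477 CPM at 50 mg/kg, against 534, 556 and 549.8 CPM in saline (-0.18 ± 0.05, adjusted p = 0.00897). Its groups did not overlap. Psmb10 had 3.08, 2.41 and 2.38 CPM at 50 mg/kg, against 4.29, 3.54 and 3.56 CPM in saline (-0.54 ± 0.19). It missed the threshold (adjusted p = 0.0529), and over 25 alternative settings its adjusted p ran from 0.0221 to 0.184, passing in 11. Psma7 (-0.17 ± 0.08, adjusted p = 0.132), Psma8 (0.00 ± 0.05, adjusted p = 0.999), Psmb5 (0.01 ± 0.12, adjusted p = 0.976), Psme1 (-0.07 ± 0.11, adjusted p = 0.712), Psme2 (-0.27 ± 0.11, adjusted p = 0.112) and Psme4 (-0.09 ± 0.07, adjusted p = 0.418) were not called. The 7 assembly factors had 0 calls, with log2 fold changes of -0.20 to 0.65, when 9.21% of all genes rose and 8.02% fell.

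The count at 50 mg/kg depended on single libraries: it was 4 without library 2 or library 3 of that group, 5 without saline library 3, and 15 without library 3 of the 100 mg/kg group. Single calls were lost as follows. Psma2 lost it without library 3 of the 50 mg/kg group (adjusted p = 0.0519), and Psma3 without library 2 or 3 of that group or saline library 3 (0.051 to 0.0705). Psmb6 lost it without library 2 or 3 of the 50 mg/kg group or saline library 2 (0.0598 to 0.0779), Psmd2 without saline library 3 (0.0518) and Psmf1 without library 2 of the 50 mg/kg group (0.0722). Psmc1 lost it without any saline library or library 2 or 3 of the 50 mg/kg group (0.0537 to 0.0964), and also on library size alone (0.0713). Psmd13 lost it without any saline library, library 2 or 3 of the 50 mg/kg group, or library 1 of the 200 mg/kg group (0.0505 to 0.187), and also on library size alone (0.0833). Psmd3 and Psmd7 kept theirs in every such fit. Sertoli cell genes summed to 1326 to 1392 CPM at 50 mg/kg and 1549 to 1574 CPM in saline. Of these 12 genes 6 fell and 1 rose, against 8.02% and 9.21% of all genes. The part of Sertoli cells in the result was not tested.

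At 100 mg/kg the members divided. In the test without a correction for transcript length, the largest rise was that of the catalytic Psmb5. The largest falls in that test were Psme4 and the base scaffolds Psmd1 and Psmd2. Of 47 tested, 20 rose and 4 fell, when 25.6% of all tested genes rose and 26.8% fell. Without Psmc3ip, which is no proteasome part, 19 of 46 rose and 4 fell. How many members were called each way depended on transcript length. With each library's trend on length removed, as described below, 6 rose and 14 fell on principal transcripts, against 22.9% and 22.1% of all genes. On merged exons 11 rose and 10 fell, and on median transcripts 19 rose and 8 fell. Of the calls made before correction, 6 rises changed sign on principal transcripts and were then not called. The 4 falls were kept with each of these lengths. The median log2 fold change was 0.18 over the members and 0.01 over all genes. The library ranges lay wholly above saline for 22 members and wholly below for 5, against 28.9% and 29.9% of all genes. Without library 3 of the group, 21 members rose and 4 fell.

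Core subunits gave 9 of the rises among 16 tested (56.2%, against 25.6% of all genes). They were Psma4, Psma5 and Psma6 of the alpha ring and Psmb1 to Psmb6 of the beta ring. On principal transcripts with the length trend removed, 2 rose (Psmb1 and Psmb5) and 4 fell, against 22.9% and 22.1% of all genes. On median transcripts Psma5 and Psmb4 alone of the 9 lost their call. Psmb4 also lost its call without saline library 1 or 2 or library 3 of the 100 mg/kg group (adjusted p = 0.0813 to 0.0925), and Psma5 without saline library 2 (0.0673). Psmb5 had 15.2, 14.9 and 19.9 CPM at 100 mg/kg, against 8.76, 10.5 and 10.8 CPM in saline (0.73 ± 0.12, 1.66-fold, adjusted p = 1.43e-05). The third library was the highest, and without it the log2 fold change was 0.59. Psmb1 had 87.1, 86.2 and 96.1 CPM at 100 mg/kg, against 73.4, 74.4 and 72.1 CPM in saline (0.29 ± 0.05, adjusted p = 7.16e-05). Psma6 had 596, 612 and 653 CPM at 100 mg/kg, against 509, 505 and 506 CPM in saline (0.29 ± 0.04, adjusted p = 2.3e-06). None of these groups overlapped. Psmb5 is 98.87% identical to the pseudogene Gm3375 over 796 bases, so its level is uncertain.

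Promoters are shown here for 3 members, Psmb6 among them. All 3 carry the motif described next and rose at 100 mg/kg in the uncorrected test. Psmc6, which carries it and fell, and Psmd12, which carries it and was not called, are not shown. The 3 promoters therefore do not tie the motif to a rise. The letters TGACNNNGC are the core of the antioxidant response element, which Nrf1 and Nrf2 bind, and Nrf1 is known as the factor that raises proteasome genes when proteasome activity falls. Promoters were matched for 40 of the 48 members (RefSeq, GRCm38.p6, 250 bases before the start, both strands searched). The motif was found in 5 of these 40 (12.5%: Psmb5, Psmb6, Psmc6, Psmd12 and Psmd9), against 11.5% of 26994 genes, and the CCAAT box in 35% of members against 37.5% of genes. Of the 5, 3 rose at 100 mg/kg in the uncorrected test (Psmb5, Psmb6, Psmd9), Psmc6 fell and Psmd12 was not called. The call of Psmb6 was lost with the length trend removed on principal transcripts (-0.08, adjusted p = 0.118) or merged exons (0.08, adjusted p = 0.157). It was kept on median transcripts. Capitals mark the motif in these 3, at chr14:54618024-54618067 on the minus strand, chr11:70525323-70525356 on the plus strand and chr5:123228134-123228177 on the plus strand.
Psmb5: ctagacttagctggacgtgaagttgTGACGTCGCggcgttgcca
Psmb6: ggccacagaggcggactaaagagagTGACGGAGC
Psmd9: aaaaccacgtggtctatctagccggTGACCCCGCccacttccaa
The match ended 39 bases before the start in Psmb5, 1 base before it in Psmb6 and 23 bases before it in Psmd9. A match of letters is a description and does not show binding.

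In the caps, Psmd8, a lid subunit, had 398, 421 and 465 CPM at 100 mg/kg, against 313, 326 and 338 CPM in saline (0.39 ± 0.05, adjusted p = 9.37e-07). The ATPase Psmc3 had 899.8, 924 and 983 CPM at 100 mg/kg, against 812, 820.2 and 823 CPM in saline (0.19 ± 0.04, adjusted p = 0.000152). Both rose without overlap, as did Psmc4, Psmd3 and Psmd13, but with the length trend removed on principal transcripts Psmd8 alone of these 5 rose. By the same measure 1 of the 17 cap subunits rose and 9 fell, against 22.9% and 22.1% of all genes. Uncorrected, 5 rose (29.4%) and 3 fell (17.6%), against 25.6% and 26.8% of all genes. On median transcripts Psmd13 alone of the 5 lost its call. The scaffolds Psmd1 and Psmd2 fell. Psmd1 had 67.1, 63.7 and 48.1 CPM at 100 mg/kg, against 97.9, 95.2 and 91.8 CPM in saline (-0.67 ± 0.08, adjusted p = 4.51e-07). Psmd2 had 474, 449.9 and 396 CPM at 100 mg/kg, against 558, 564 and 595 CPM in saline (-0.38 ± 0.05, adjusted p = 8.41e-07). In both, library 3 was lowest, and without it the log2 fold changes were -0.53 and -0.30. The ATPase Psmc6 fell by 0.25 ± 0.06 (adjusted p = 0.000897). Psmd1 overlaps Gm21972 on the same strand, with 305 shared bases.

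In the uncorrected test Psme4 showed the largest fall of the 47. It had 468, 436 and 357 CPM at 100 mg/kg, against 746, 753 and 751 CPM in saline (-0.835 ± 0.07, 1.78-fold lower, adjusted p = 4.11e-08). Every treated library lay below every saline library. Without library 3 the log2 fold change was -0.72. With the length trend removed on principal transcripts it was -0.53, a smaller fall than that of Psmd1. Psmf1 had 622, 627 and 708 CPM at 100 mg/kg, against 534, 556 and 549.8 CPM in saline (0.26 ± 0.05, adjusted p = 8.93e-05), also without overlap.

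Of the assembly factors, 4 of 7 rose (57.1%, against 25.6% of all genes). They were Psmd9 and Psmd10, chaperones of the base, and Psmg1 and Psmg2, the pair that starts the alpha ring. With the length trend removed on principal transcripts only Psmd9 of the 7 rose, and Psmd10 stood at 0.12 (adjusted p = 0.349), Psmg1 at -0.01 (adjusted p = 0.943) and Psmg2 at 0.03 (adjusted p = 0.749). On median transcripts the 4 kept their calls. Psmd10 also lost its call without saline library 1 or library 1 of the 100 mg/kg group (0.111 and 0.0804). Psmd9 had 34.6, 35.9 and 45.0 CPM at 100 mg/kg, against 25.9, 30.0 and 28.3 CPM in saline (0.45 ± 0.08, adjusted p = 7.74e-05). It overlaps Hpd on the opposite strand. Psmc3ip had 172, 174 and 182 CPM at 100 mg/kg, against 125, 125 and 122 CPM in saline (0.50 ± 0.05, adjusted p = 4.63e-09), and shares 385 bases with Mlx. Psmb10 (0.20 ± 0.17, adjusted p = 0.342), Psma7 (0.12 ± 0.08, adjusted p = 0.193), Psma8 (0.05 ± 0.05, adjusted p = 0.394), Psme1 (0.15 ± 0.11, adjusted p = 0.241) and Psme2 (0.19 ± 0.11, adjusted p = 0.156) were not called.

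**Figure D2:**
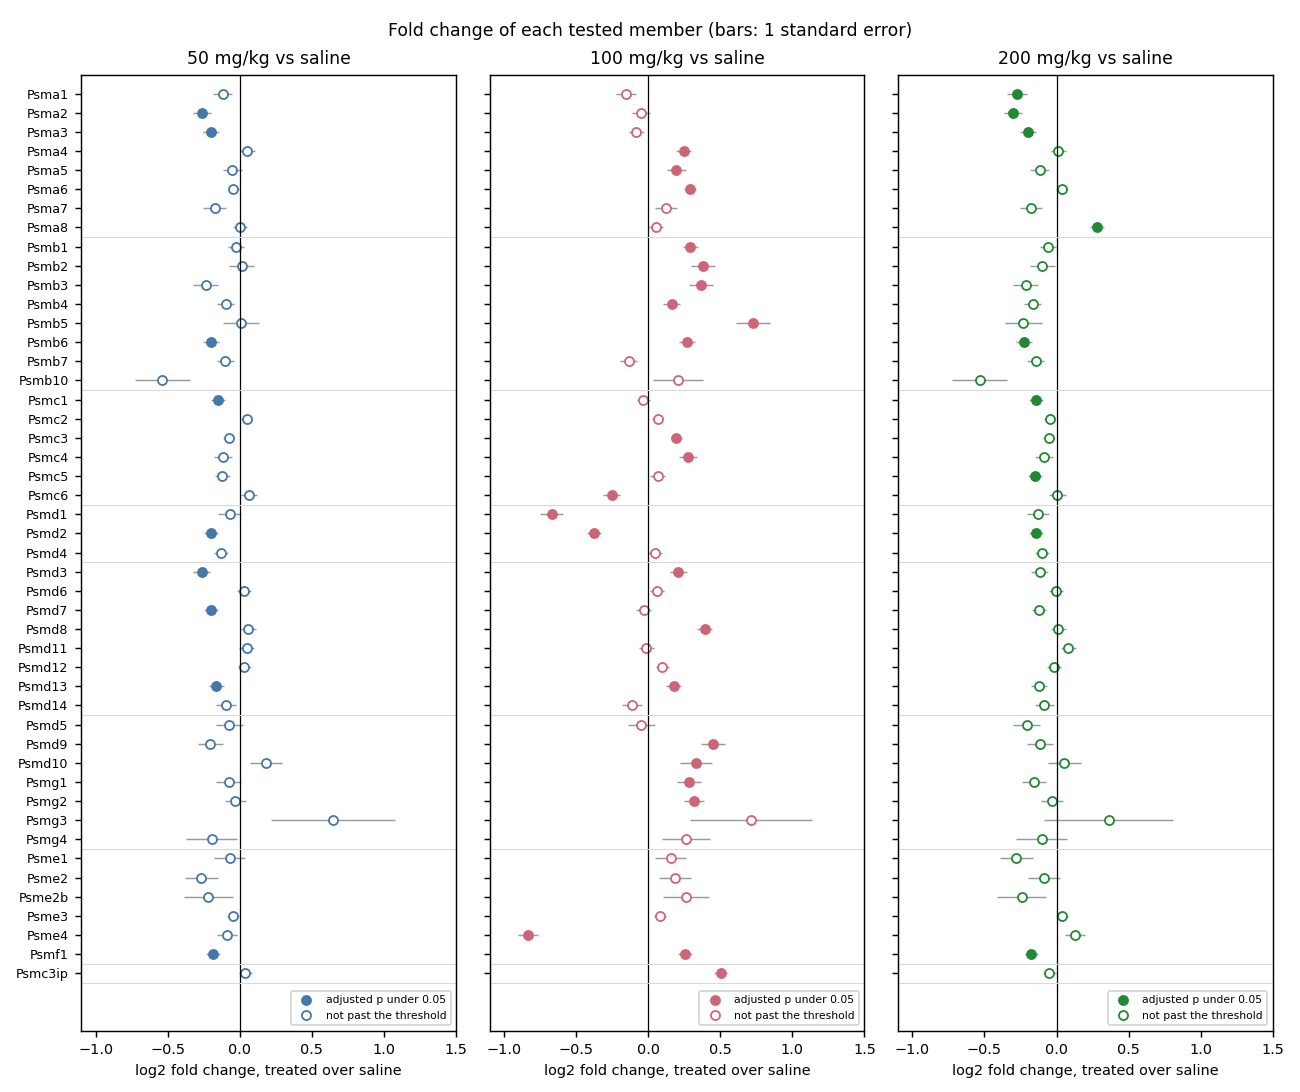
Log2 fold change of the 47 tested members at 50, 100 and 200 mg/kg over saline, with 1 standard error, ordered by role. Filled points passed an adjusted p under 0.05: 9 at 50 mg/kg, all lower, 20 higher and 4 lower at 100 mg/kg, and 1 higher and 8 lower at 200 mg/kg.

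At 100 mg/kg the size of the change went with transcript length, over the members and over all genes. Spearman's rho between log2 fold change and principal transcript length was -0.55 over the 47 members and -0.49 over 15653 genes, a description across genes that share the same libraries. At 50 mg/kg it was 0.02 over both, and at 200 mg/kg 0.18 and 0.12. In genes under 1000 bases the median log2 fold change at 100 mg/kg was 0.38 over 1130 genes and 0.27 over 9 members. In genes of 3000 bases and over it was -0.19 over 7496 genes and -0.36 over 4 members. Within each of the 5 length classes the members' median at 100 mg/kg lay below that of all genes.

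**Figure D3:**
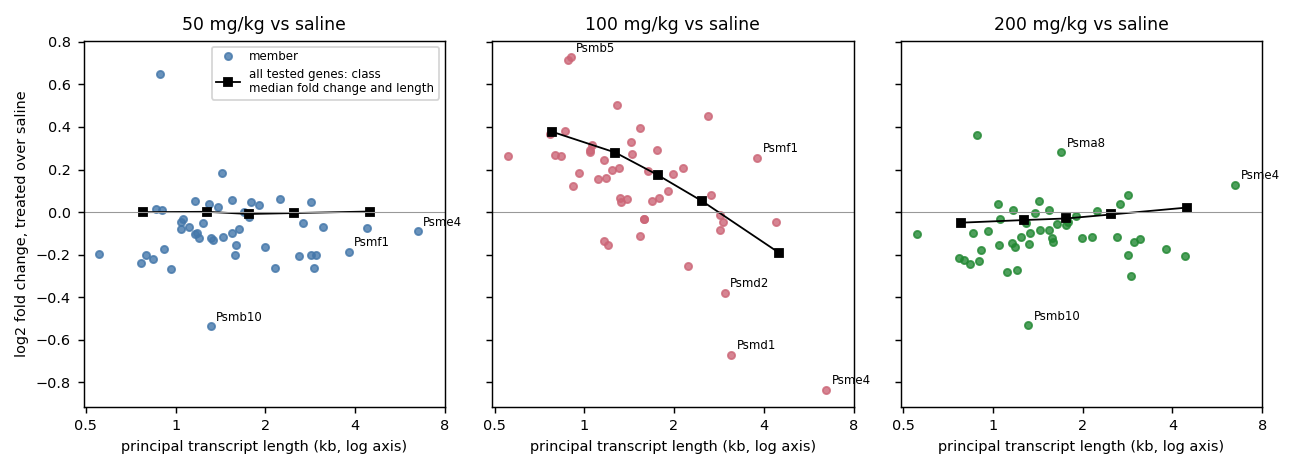
Log2 fold change of each tested member (points) against principal transcript length in kb on a log axis, at 50, 100 and 200 mg/kg over saline. Squares join the medians of all tested genes in 5 length classes, which at 100 mg/kg run between 0.38 in the shortest and -0.19 in the longest.

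With this trend removed from each library, 0 members rose and 13 fell at 50 mg/kg, against 11.1% and 10.6% of all genes, and 1 rose and 6 fell at 200 mg/kg, against 11.2% and 10.3%. By the same measure 6 members rose and 14 fell at 100 mg/kg, against 22.9% and 22.1% of all genes, and the members' median was -0.03. On median transcripts 19 rose and 8 fell, and Psma5, Psmb4 and Psmd13 alone of the 20 rises lost their call. The correction on principal transcript length was chosen after seeing the data. The calls shared by the uncorrected test and 3 definitions of length were the rises of Psmb1, Psmb5, Psmc3ip, Psmd8, Psmd9 and Psmf1 and the falls of Psmc6, Psmd1, Psmd2 and Psme4. Psmb5 then stood at 0.40 (adjusted p = 0.00182), Psmd9 at 0.43 (adjusted p = 2.3e-05), Psmf1 at 0.38 (adjusted p = 5.57e-05), Psmd1 at -0.62 (adjusted p = 1.42e-06) and Psme4 at -0.53 (adjusted p = 3.39e-12). Psma6 stood at 0 to 2 decimals and Psmb6 at -0.08 (adjusted p = 0.118). Psma1, an alpha subunit, and Psmb7, which were not called before (-0.15 and -0.13), stood at -0.41 and -0.40 and passed. The part of transcript length in these results was not tested further.

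**Figure D4:**
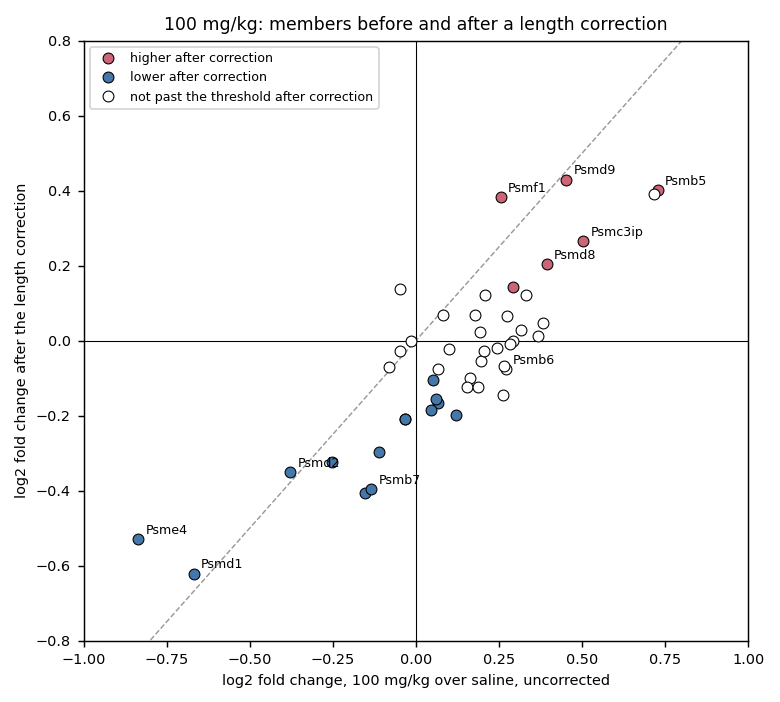
Log2 fold change of the 47 tested members at 100 mg/kg over saline, before (horizontal axis) and after (vertical axis) removal of the trend with transcript length. Red points are higher and blue points lower after correction. The dashed line marks equal values, Psmf1 lies above it and Psmb5, Psmc3ip and Psmb7 below it.

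Elongating spermatid genes summed to 23170 to 27870 CPM at 100 mg/kg and 21220 to 21660 CPM in saline, with 7 of 10 higher and 1 lower, or 3 higher and 5 lower with the length trend removed. Of 12 spermatocyte genes 2 rose and 8 fell, with or without that correction, with sums of 6071 to 6448 CPM at 100 mg/kg and 5871 to 5957 CPM in saline. Of all genes 25.6% rose and 26.8% fell, or 22.9% and 22.1% with the trend in principal transcript length removed. Lymphocyte genes summed to 31.6 to 36.7 CPM at 100 mg/kg and 15.9 to 17.7 CPM in saline. The part of these cell types in the members' changes was not tested.

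At 200 mg/kg a small set of members fell, and the germ-cell subunit Psma8 alone of the 47 rose past the threshold. The counts were 1 higher and 8 lower, when 10.3% of all tested genes rose and 8.30% fell. The median log2 fold change was -0.11 over the members and -0.00 over all genes. The library ranges lay wholly below saline for 22 members and wholly above for 2, Psma8 and Psme4, against 19.3% and 19.8% of all genes.

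Psma8 had 229.8, 246 and 226 CPM at 200 mg/kg, against 205, 188 and 184 CPM in saline (0.28 ± 0.05, 1.22-fold, adjusted p = 0.000192). It passed in all 25 alternatives, with log2 fold changes of 0.24 to 0.32. The alpha subunits Psma1, Psma2 and Psma3 fell. Psma1 had 29.7, 29.1 and 27.5 CPM at 200 mg/kg, against 32.6, 34.4 and 37.1 CPM in saline (-0.27 ± 0.07, adjusted p = 0.00733). Psma2 had 38.4, 40.0 and 40.5 CPM at 200 mg/kg, against 51.7, 48.4 and 46.5 CPM in saline (-0.30 ± 0.06, adjusted p = 0.00147). Psma3 had 61.3, 59.4 and 61.2 CPM at 200 mg/kg, against 70.5, 68.4 and 70.2 CPM in saline (-0.20 ± 0.05, adjusted p = 0.0125). None of these groups overlapped, though the call of Psma1 was lost without saline library 3 (adjusted p = 0.0569). Psma7 had 25.8, 26.4 and 24.2 CPM at 200 mg/kg, against 28.5, 31.2 and 26.5 CPM in saline, and was not called (-0.18 ± 0.08, adjusted p = 0.121).

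The ratio of Psma8 to Psma7 within a library was 4.81, 5.04 and 5.03 at 200 mg/kg, above its 3.88, 3.25 and 3.75 in saline. Its mean was 3.63 ± 0.33 in saline, 4.09 ± 0.28 at 50 mg/kg, 3.45 ± 0.28 at 100 mg/kg and 4.96 ± 0.13 at 200 mg/kg (SD, n = 3 each). The 200 mg/kg libraries lay above all the others. The scale of the ratio rests on the transcript lengths used, which change every library by the same factor. The trend with length within a library was not removed from it.

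Among the remaining falls at 200 mg/kg, Psmb6 had 138, 131 and 132 CPM, against 156, 160 and 154 CPM in saline (-0.23 ± 0.06, adjusted p = 0.0065). Psmf1 had 488, 488 and 478 CPM at 200 mg/kg, against 534, 556 and 549.8 CPM in saline (-0.17 ± 0.05, adjusted p = 0.0128). Both lay below saline in all libraries. The ATPases Psmc1 (-0.14 ± 0.05, adjusted p = 0.0325) and Psmc5 (-0.15 ± 0.05, adjusted p = 0.0378) and the scaffold Psmd2 (-0.14 ± 0.05, adjusted p = 0.0455) were close to the threshold. Psmc1 lost the call without any 1 of the 6 libraries compared (adjusted p = 0.0655 to 0.083). Psmc1 also lost the call on library size alone (0.072) and with each length correction (0.0772 to 0.146). Psmc5 lost it without saline library 1 or 3, library 2 or 3 of the 200 mg/kg group, or library 3 of the 50 mg/kg group (0.0542 to 0.133). Psmd2 lost it without any library of the saline, 50 or 200 mg/kg groups or library 2 of the 100 mg/kg group (0.0505 to 0.201), and Psmf1 without saline library 2 (0.058). On library size alone Psmc5 (0.0822) and Psmd2 (0.108) also lost the call. Psmc5 lost it with a correction on merged exons (0.177) or principal transcripts (0.102). Psmd2 lost it with a correction on median transcripts (0.135), with DESeq2 (0.0518) and with a replicate block (0.063). The 8 lid subunits and the 7 assembly factors had 0 calls, with medians of -0.05 and -0.10. Of all genes 10.3% rose and 8.30% fell.

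Psme4 had 808, 828 and 823 CPM at 200 mg/kg, against 746, 753 and 751 CPM in saline (0.13 ± 0.07, adjusted p = 0.227). The groups did not overlap and the call depended on the fit. With the 2 groups fitted alone the adjusted p was 5.54e-06, without library 3 of the 100 mg/kg group it was 0.0069, and over 25 alternatives it ran from 5.54e-06 to 0.427. Psmb10 had 3.35, 2.09 and 2.36 CPM at 200 mg/kg, against 4.29, 3.54 and 3.56 CPM in saline (-0.53 ± 0.19, adjusted p = 0.0541), and passed in 7 of 25 alternatives, with adjusted p of 0.019 to 0.198. Psmb5 (-0.23 ± 0.13, adjusted p = 0.233), Psme1 (-0.28 ± 0.11, adjusted p = 0.0906) and Psme2 (-0.09 ± 0.11, adjusted p = 0.635) were not called.

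The count of falls at 200 mg/kg was 17 without library 3 of the 100 mg/kg group, which enters the shared estimate of spread, 4 without saline library 3, and 5 without saline library 1 or without library 2 or 3 of the 200 mg/kg group. Sertoli cell genes summed to 1213 to 1224 CPM at 200 mg/kg and 1549 to 1574 CPM in saline, with 7 of 12 lower and 1 higher. Macrophage genes summed to 95.1 to 101 CPM at 200 mg/kg and 134 to 139 CPM in saline, with 7 of 10 lower. Of all genes 8.30% fell and 10.3% rose. The part of these cell types was not tested.

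**Figure D5:**
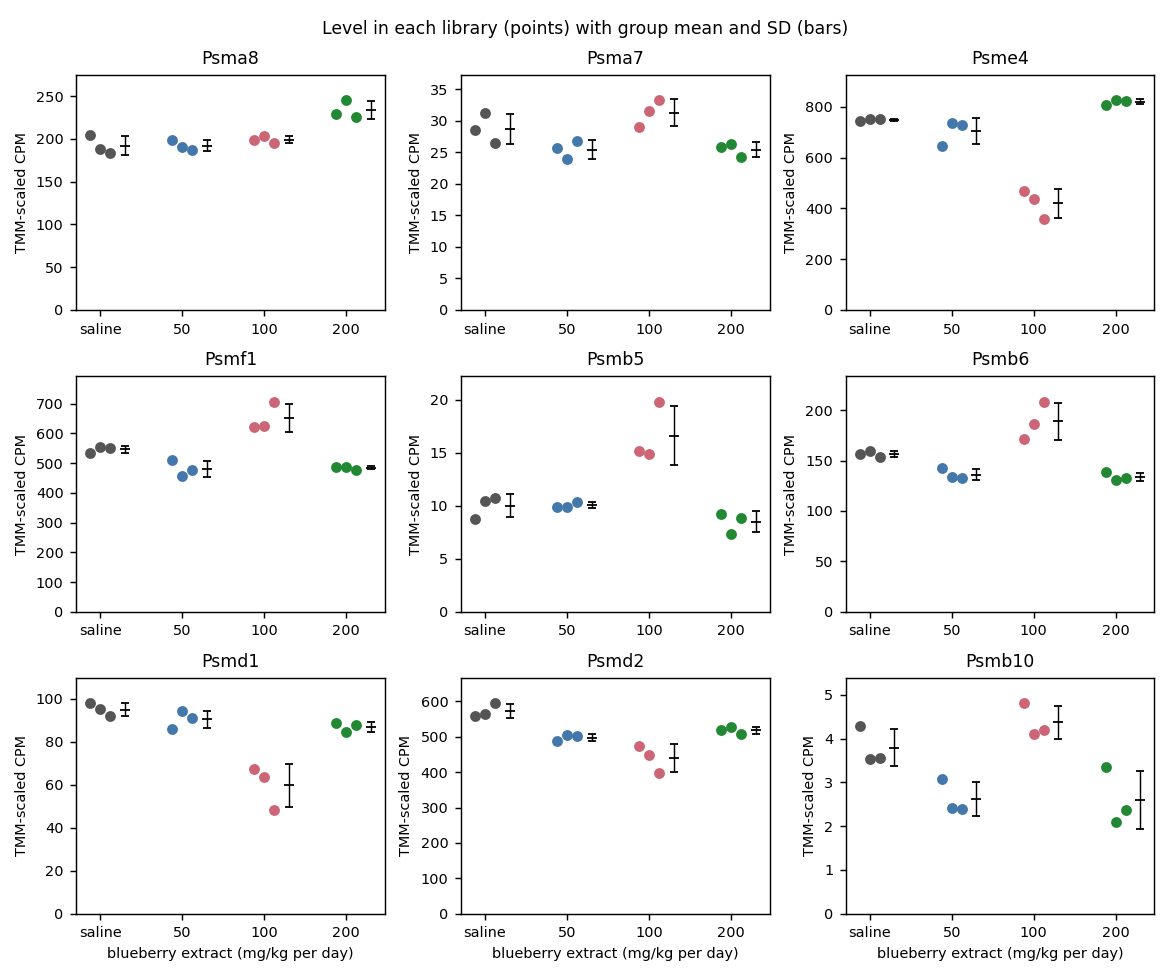
TMM-scaled CPM of 9 members in each library, with the group mean and SD beside the points, by dose in mg/kg per day. Psme4, Psmd1 and Psmd2 lie lowest at 100 mg/kg, where Psmb5, Psmb6 and Psmf1 lie highest, and Psma8 lies highest at 200 mg/kg.

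The doses were also compared with each other. At 100 mg/kg 30 members were higher and 4 lower than at 50 mg/kg, against 24.6% and 26.9% of all genes. At 200 mg/kg 5 were higher and 30 lower than at 100 mg/kg, against 27.8% and 25.2%. With the length trend removed 30 and 4 became 16 and 10, against 22.5% and 22.3% of all genes, and 5 and 30 became 11 and 14, against 22.2% and 21.6%. Between 200 and 50 mg/kg, 1 member was higher and 0 lower, against 2.54% and 2.51% of all genes. At an unadjusted p under 0.05 these were 3 and 2, and DESeq2 called 2 higher and 0 lower. The one was Psma8, which was higher at 200 mg/kg than at 50 mg/kg (0.28 ± 0.05, adjusted p = 0.000475) and than at 100 mg/kg (0.23 ± 0.05, adjusted p = 0.000271). Psme4 was lower at 100 mg/kg than at 50 mg/kg (-0.74 ± 0.07, adjusted p = 1.52e-07) and higher at 200 than at 100 mg/kg (0.96 ± 0.07, adjusted p = 6.42e-09). The ratio of Psme4 to Psme3, added after seeing the data, was 1.86 ± 0.06 in saline, 1.81 ± 0.15 at 50 mg/kg, 0.986 ± 0.14 at 100 mg/kg and 1.98 ± 0.04 at 200 mg/kg (SD, n = 3 each). The principal transcripts are 6.491 kb for Psme4 and 2.664 kb for Psme3. The trend with length at 100 mg/kg was not removed from this ratio, and its part was not tested. The 3 comparisons with saline share the same saline libraries. Over the 4 groups, 38 of the 47 differed in some way, against 64.3% of all tested genes. The 9 that were not called were Psmb7, the lid subunits Psmd6, Psmd11, Psmd12 and Psmd14, the assembly factors Psmd5, Psmg3 and Psmg4, and Psme3.

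Other genes of the system were read from lists. Of all tested genes, 9.21% rose and 8.02% fell at 50 mg/kg and 10.3% rose and 8.30% fell at 200 mg/kg. At 100 mg/kg 25.6% rose and 26.8% fell, or 22.9% and 22.1% with the trend in principal transcript length removed. Of 14 proteasome partners outside the naming rule, 0 were called at 50 mg/kg, 4 rose and 4 fell at 100 mg/kg, and 1 fell at 200 mg/kg. The 28.6% each way at 100 mg/kg lay close to the shares of all genes. Ecpas, a scaffold that holds the particle together, averaged 80.9 ± 15.2 CPM at 100 mg/kg and 150 ± 3.48 CPM in saline (-0.89 ± 0.09, adjusted p = 2.67e-07). Ube3c, a ubiquitin ligase on the particle, averaged 108 ± 12.1 CPM at 100 mg/kg and 157 ± 4.5 CPM in saline (-0.54 ± 0.06, adjusted p = 5.87e-08). Sem1, a small lid subunit, averaged 61.6 ± 5.52 CPM at 100 mg/kg and 43.5 ± 3.78 CPM in saline (0.50 ± 0.07, adjusted p = 2.1e-06). Ipo9, which carries proteasomes into the nucleus, fell by 0.35 ± 0.07 at 100 mg/kg (adjusted p = 9.44e-05), but not with the trend in length removed (-0.05, adjusted p = 0.526 on principal transcripts, and -0.13, adjusted p = 0.0781 on merged exons).

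Of 7 genes for ubiquitin and its activating enzymes, 4 fell at 50 mg/kg and 3 at 200 mg/kg (all genes: 8.02% and 8.30%). At 100 mg/kg 3 rose and 3 fell, against 25.6% and 26.8% of all genes. With the trend in principal transcript length removed 1 rose and 5 fell, against 22.9% and 22.1%. Uba1, the main activating enzyme, averaged 236 ± 6.99 CPM in saline, 179 ± 3.78 CPM at 50 mg/kg, 178 ± 13.0 CPM at 100 mg/kg and 206 ± 2.4 CPM at 200 mg/kg (adjusted p against saline 3.32e-06 at 50, 2.63e-07 at 100 and 0.00645 at 200 mg/kg). Its homologue on the Y chromosome, Uba1y, fell at the same 3 doses, by 0.42 ± 0.12, 0.71 ± 0.12 and 0.43 ± 0.12 on the log2 scale. The call of Uba1y at 50 mg/kg was lost without saline library 2 (adjusted p = 0.133) or library 3 of that group (0.0802). At 200 mg/kg it was lost without saline library 2 (0.111). Uba6 fell at 100 mg/kg (-0.61 ± 0.10, adjusted p = 1.01e-05) and the polyubiquitin gene Ubb rose there (0.25 ± 0.04, adjusted p = 4.91e-05), but not after the length correction (0.06, adjusted p = 0.26). Of 15 shuttle and segregase genes, 2 rose and 3 fell at 50 mg/kg, and 2 rose and 4 fell at 200 mg/kg. At 100 mg/kg 4 rose (26.7%) and 7 fell (46.7%), against 25.6% and 26.8% of all genes. Ufd1, a cofactor of the p97 segregase, rose at all 3 doses (0.19, 0.31 and 0.22 on the log2 scale). Without saline library 1 its call at 50 mg/kg was lost (adjusted p = 0.0521). Nploc4, the partner of Ufd1, fell at 50 and 100 mg/kg (-0.19 and -0.31) and was at -0.01 at 200 mg/kg. The shuttle Rad23b fell at 100 mg/kg (-0.57 ± 0.07), and Ubqln4 rose at 100 and 200 mg/kg (0.25 and 0.43). With the trend in median transcript length removed, the call of Ubqln4 at 100 mg/kg was lost (adjusted p = 0.0754).

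Of 6 genes for the transcription of proteasome genes, 0 were called at 50 mg/kg and 1 fell at 200 mg/kg. At 100 mg/kg 1 rose (16.7%) and 2 fell (33.3%), against 25.6% and 26.8% of all genes. Nfe2l1, which encodes Nrf1, averaged 85.2 ± 0.92 CPM in saline, 75.3 ± 0.68 CPM at 50 mg/kg, 60.6 ± 8.51 CPM at 100 mg/kg and 70.7 ± 1.15 CPM at 200 mg/kg. It was called at 100 mg/kg (-0.49 ± 0.07, adjusted p = 1.69e-06) and 200 mg/kg (-0.27 ± 0.07, adjusted p = 0.0064), not at 50 mg/kg (adjusted p = 0.0669). At 50 mg/kg it passed in 10 of 25 alternatives, with adjusted p of 0.0021 to 0.166. Ngly1, the enzyme that activates Nrf1, fell at 100 mg/kg (-0.18 ± 0.04, adjusted p = 0.000628), while it stood at 0.01 with the trend in merged exon length removed. Nfyc, of the CCAAT-binding factor, rose at 100 mg/kg (0.43 ± 0.12, adjusted p = 0.0028), and its partner Nfya was not called at any dose in the uncorrected test. With the trend in length removed Nfya passed at 100 mg/kg (0.21, adjusted p = 0.0286 on principal transcripts, and 0.28, adjusted p = 0.00424 on merged exons).

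Of 13 tested genes of the interferon response and antigen presentation, 2 rose and 3 fell at 50 mg/kg. At 200 mg/kg 1 rose and 4 fell. At 100 mg/kg 6 rose (46.2%) and 1 fell (7.69%), against 25.6% and 26.8% of all genes. Tap1, which carries proteasome-made peptides to class I molecules, averaged 3.57 ± 0.27 CPM in saline, 1.39 ± 0.14 CPM at 50 mg/kg, 10.1 ± 1.03 CPM at 100 mg/kg and 1.06 ± 0.3 CPM at 200 mg/kg (adjusted p against saline 4.43e-05 at 50, 1.61e-08 at 100 and 3.49e-06 at 200 mg/kg). Nlrc5, the transactivator of class I genes, rose at 50 mg/kg (1.82 ± 0.15, adjusted p = 6.37e-09) and 200 mg/kg (1.11 ± 0.17, adjusted p = 3.71e-05) and was not called at 100 mg/kg (0.29 ± 0.18, adjusted p = 0.188). It passed there with voom (0.45, adjusted p = 0.0287) and with the trend in length removed (0.64, adjusted p = 0.00394 on principal transcripts, and 0.52, adjusted p = 0.018 on merged exons). The class I genes differed: H2-K1 fell at 50 mg/kg (-0.55 ± 0.08) and rose at 100 mg/kg (0.33 ± 0.08, but 0.16 with adjusted p = 0.0621 after the correction on principal transcripts), and H2-D1 fell at 100 mg/kg (-0.64 ± 0.08) and 200 mg/kg (-0.47 ± 0.08). Class I genes of the mouse are closely related in sequence, so their values are uncertain.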

How the data were processed

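Libraries were stranded and polyA-selected, per the labels' protocols. The authors deposited whole-number read counts per gene for 12 libraries. Per the submitters' processing notes, the tools were STAR, Trimmomatic, DESeq2 and featureCounts and the build GRCm38 (mm10). Versions, annotation and the settings for strand and multiply mapped reads were not given in the sources used here, so reads of overlapping or near-identical genes may be misassigned. Libraries were grouped and numbered by title; the descriptions number the third library of each treated group as 2, which conflicts with the titles. Positions, lengths and principal transcripts came from GENCODE M21 on GRCm38, and near-identical copies were stretches of at least 100 bases at 97% identity.

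Counts were fitted with edgeR 4.0.16 in R 4.3.3: filterByExpr, TMM factors, one robust quasi-likelihood model of all 4 groups, and Benjamini-Hochberg adjustment over the 15682 genes kept. The standard error was the log2 fold change divided by the square root of F. A length correction removed a lowess trend (span 0.3) of each library on log length. Scripts were tested on simulated data. Alternatives were other factors and filters, DESeq2 1.42.0, limma 3.58.1 voom, fits of 2 groups, a replicate block, 3 lengths and each library left out. The members and lists were chosen with earlier results of these data known. Named members were, per comparison with saline, up to 8 called in each direction by p, with Psma7, Psma8, Psmb5, Psmb10, Psme1, Psme2, Psme4, Psmf1 and Psmc3ip always, and up to 4 genes per pathway list. Other members are given as counts and ranges, or named after their values were seen where a count is broken down.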

Additional observations from a re-analysis of the deposited data

Results flagged for a closer look

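Some members were called on opposite sides of saline at 2 doses, and the difference between the doses was itself tested in the same edgeR fit. The members were picked for those calls in the same libraries. A difference between the doses thus followed from the choice, and its p-values add no support. At 100 mg/kg these members were above saline and at 50 mg/kg below it. The log2 difference of 100 mg/kg over 50 mg/kg was 0.472 for Psmb6, 0.34 for Psmd13, 0.473 for Psmd3 and 0.439 for Psmf1 (adjusted p = 2.26e-07, 8.46e-06, 4.8e-07 and 6.8e-08). The same held for 200 mg/kg over 100 mg/kg in Psmb6, at -0.496, and in Psmf1, at -0.428 (adjusted p = 9.86e-08 and 8.22e-08). With the trend in principal transcript length removed, the difference of 100 over 50 mg/kg was 0.131 for Psmb6 and 0.564 for Psmf1, and that of 200 over 100 mg/kg was -0.1 and -0.562. Psmd13 and Psmd3 then stood at 0.228 and 0.385. Against saline at 100 mg/kg, only Psmf1 of the 4 was still called higher with that correction (0.38, adjusted p = 5.57e-05). Psmb6 stood at -0.0757 (adjusted p = 0.118), Psmd13 at 0.0677 (adjusted p = 0.246) and Psmd3 at 0.123 (adjusted p = 0.0655). With the correction on median transcripts Psmd13 alone of the 4 lost the call at 100 mg/kg.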

How the results depend on the processing

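Members called lower at 50 mg/kg numbered 9, with 4 to 15 when 1 library was left out, 16 with voom, and 15 with the 2 groups alone or without the 100 mg/kg libraries. Members called lower at 200 mg/kg numbered 8, with 4 to 17 when 1 library was left out, 5 on library size alone, 17 with voom or without the 100 mg/kg libraries, and 19 with the 2 groups alone; 1 was called higher, or 2 with voom, the 2 groups alone or without the 100 mg/kg libraries (1 to 2 on leaving out a library). At 100 mg/kg 20 were higher (18 to 21 without 1 library) and 4 lower (4 to 5). The length corrections gave 11 higher and 10 lower on merged exons, 19 higher and 8 lower on median transcripts, and 6 higher and 14 lower on principal transcripts. For 100 over 50 mg/kg, 30 higher (26 to 30 without 1 library) became 16 on merged exons and on principal transcripts, and 4 lower (4 in every such fit) became 10 on principal transcripts. For 200 over 100 mg/kg, 30 lower (26 to 31) became 17 and 14, and 5 higher (5 to 6) became 11 on principal transcripts. For 200 over 50 mg/kg, 1 higher (1 to 2) became 2 with DESeq2, the 2 groups alone or without the 100 mg/kg libraries and 3 with voom or a correction on merged exons or principal transcripts, and 0 lower (0 to 1) became 1 with voom, the 2 groups alone or without the 100 mg/kg libraries. The 0 higher at 50 mg/kg and the 38 with any difference (35 to 39 without 1 library) did not move by over 1.5 times.

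At 100 mg/kg, 19 of the 47 members changed sign with the correction on principal transcripts. Of these, 6 were called before it: Psma4 (-0.019), Psma5 (-0.0533), Psma6 (-9.12e-05), Psmb4 (-0.101), Psmb6 (-0.0757) and Psmg1 (-0.00807). Another 5 were called after it only: Psma7 (-0.198), Psma8 (-0.106), Psmc5 (-0.166), Psmd4 (-0.185) and Psmd6 (-0.155). The other 8, among them Psmb10 (-0.0279), Psme1 (-0.123) and Psme2 (-0.123), were called in neither. On merged exons, signs reversed for Psma5 (-0.0733), Psmb4 (-0.0228), Psmc5 (-0.191), Psmd11 (0.126) and Ngly1 (0.0098). These corrections change with the length used, and the cause of each reversal was not tested. Of 5224 values of members and named genes under an alternative, 4918 kept their side of the threshold with no called value changing sign, though 109 of these changed sign with no call in either fit. Another 107 lost a call, 178 gained one and 21 reversed.

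The replicate numbers are not stated to pair libraries. Correlations of deviations were -0.129 to 0.0482 over 18 same-number pairs and -0.0926 to 0.142 over 36 others. With 3 libraries a group, such values cannot exclude a pairing. A replicate block gave 10 lower at 50 mg/kg (Psmd13 was lost, adjusted p = 0.0507), 20 higher and 4 lower at 100 mg/kg, and 1 higher and 9 lower at 200 mg/kg. With the block and the merged exon correction there were 11 higher and 10 lower at 100 mg/kg, 16 higher for 100 over 50 mg/kg, 17 lower for 200 over 100 mg/kg and 3 higher for 200 over 50 mg/kg, with Psma5 at -0.0731, Psmb4 at -0.0232, Psmc5 at -0.193, Psmd11 at 0.126 and Ngly1 at 0.00966. The ratios of Psma8 to Psma7, Psmb10 to Psmb7 and Psme4 to Psme3 changed scale with the length used. The trend with length within libraries was not removed from them. At 3 libraries a group, changes of low members such as Psmg3, at about 1 CPM, were not resolved.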
